A study of Mus musculus with 3 samples.

Results

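The 46 genes described here encode the machinery of mitosis and of the passage from G2 into it. They form a list of names set up by known role, and no measured value enters the rule, although the list was drawn up with earlier results of these data known. All 46 were found among the 14293 genes of the deposited expression table. RNA was sequenced from 3 sublines of B16, a melanoma line of C57BL/6J mice: F0, F1 and F10. F10 is known as a subline that colonises the lung readily after serial selection in mice. All sublines were cultured alike, in a high-glucose medium to which 8% serum was added, for at most 10 passages after thawing, and were harvested before confluence. The labels give no treatment or genetic change for any of them. Only 1 library was made per subline, so the differences below carry no replicate check and no test, and subline, culture and library cannot be told apart.

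A cell enters mitosis when Cdk1, bound to cyclin A or cyclin B, is switched on by Cdc25 phosphatases, helped by the kinases Plk1 and Aurora A. Chromosomes are then compacted by condensin and attached to the spindle through kinetochores, under the watch of a checkpoint that holds back the anaphase-promoting complex. Once that complex is released it marks securin and the cyclins for destruction, the sister chromatids part and the cell is cut in 2 at the spindle midzone. The mRNAs of most of these genes rise together in G2 and are low in G1, so in cultured cells their level is commonly read as a sign of proliferation. In bulk RNA, fewer cells in G2 and mitosis and less RNA of these genes per cell cannot be told apart.

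Levels are RPKM, which scale reads by transcript length and by library size, and genes are compared with each other only on this scale. Genes reaching 1 RPKM in at least 1 library were compared (10701 genes), and all 46 passed, so no member was lost to the filter. Differences are of log2(RPKM + 1) and understate those of low genes. Ratios carry 95% exact Clopper-Pearson intervals from estimated fragments, which cover counting error only. A 1 kb transcript at 1 RPKM held an estimated 5.47 fragments in F0, with 6.33 in F1 and 5.40 in F10, and the members held between 64 and 3447 fragments each per library. The libraries carried melanocyte genes at a summed 10234, 9013 and 8456 RPKM in F0, F1 and F10 over 8 markers. Leukocyte markers (6 of the 10 listed are in the table) summed to between 3.45 and 3.57 RPKM, and 2 of them passed the filter. Ptprc, which did not, read 0 in F0 and F10 and 0.0308 in F1. Fibroblast markers (7 of 8 in the table) summed to 2.48, 2.24 and 9.15 RPKM, with Lum at 0 in F0 and none at 0 in F10. The filter was passed by 3 of them, and all 3 read higher in F10 than in F0 (median 1.30), beside 49% of all genes. Endothelial markers (5 of 6) summed to 0.374, 0.348 and 1.14 RPKM, with Cdh5 at 0 in F0 and F1, and of the 6 keratinocyte markers the table holds Epcam, at 0.181 RPKM in F0 and 0 elsewhere. The part of these markers in the differences of F10 below was not tested.

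The mitotic genes were well expressed in every library. Their median was 38.2 RPKM in F0, against 30.6 in F1 and 33.7 in F10, against medians of 10.2, 10.3 and 10.1 over all genes compared, and 44 of the 46 lay at or above the all-gene median in every library. Single values ran from 7.68 RPKM (Ttk in F1) to 123 RPKM (Top2a in F10). Together the members summed to 2144 RPKM in F0, against 1785 in F1 and 1902 in F10, or 0.581%, 0.496% and 0.542% of all RPKM. F0 therefore held the most RNA of these genes, F1 the least, and F10 lay between. Of the 46, 30 read highest in F0, 13 in F10 and 3 in F1, while 27 read lowest in F1, 14 in F10 and 5 in F0. The order F0 above F10 above F1 was shown by 18 members and the order F0 above F1 above F10 by 12. Those orders were shown by 14.4% and 17.5% of all genes compared. With F10 highest, 9 members had F0 above F1 (18.8% of all genes) and 4 had F1 above F0 (15.5%). With F1 highest, 2 members had F0 above F10 (19.0%) and 1 had F10 above F0 (14.6%).

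**Figure D1:**
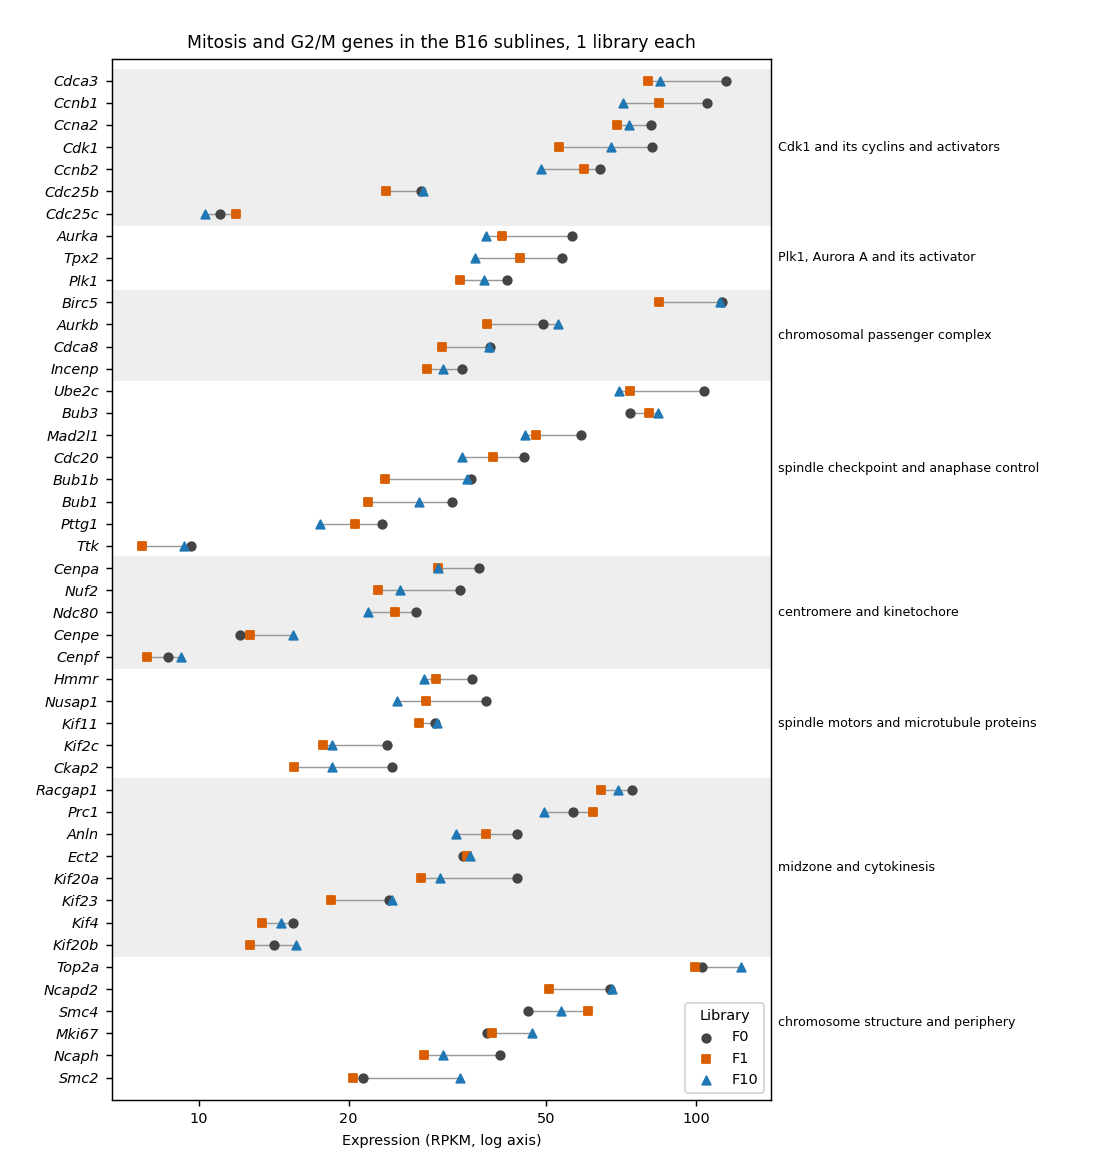
Expression of each mitosis and G2/M gene in RPKM (log axis) in the F0, F1 and F10 libraries, grouped by role and ordered within a role by mean level. Each symbol is 1 library and the grey line spans the 3 values. Most lines have F0 at their right end, and the widest, Smc2, spans 1.65-fold.

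The members also share promoter features that the choice by name did not use. Many genes of late cell cycle carry the element TTTGAA near their start, known as the cell cycle genes homology region, which is bound by the repressor complex DREAM in resting cells and by B-Myb and FoxM1 complexes in G2. They often carry CCAAT boxes as well, which bind NF-Y. RefSeq promoters (GRCm38.p6, 300 bases that end 50 after the start) were matched for 39 members, and not for Kif20a, Incenp, Tpx2, Cdc25c, Smc4, Aurkb and Ccna2. Searched on both strands, TTTGAA (or its reverse TTCAAA) stood in the promoters of 29 of the 39 (74.4%), against 20.2% of all 27025 genes in that table and 13.7% of the 8258 genes compared here that matched. Within the last 100 bases of the window the shares were 64.1%, 5.72% and 3.71%. CCAAT (or ATTGG) stood in 74.4% of the member promoters, 41.1% of all genes and 43.8% of the genes compared. The motifs can share no more than an end base. Both were present in 25 members (64.1%) and in 8.97% of all genes. A match describes letters in this window and is no evidence of binding.

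The promoters of 6 members, cut to their last 150 bases (100 before the start and 50 after), show the arrangement in genes on which the results below turn, with either motif on either strand in capitals. Cdk1, Aurka and Ube2c read lower in both later sublines than in F0, Bub1b read lower in F1, Smc2 is the member at least 1.5-fold higher in F10, and Ccnb1 is a strongly expressed cyclin whose window holds CCAAT boxes and no TTTGAA.
Cdk1, chr10:69352863-69353012, minus strand: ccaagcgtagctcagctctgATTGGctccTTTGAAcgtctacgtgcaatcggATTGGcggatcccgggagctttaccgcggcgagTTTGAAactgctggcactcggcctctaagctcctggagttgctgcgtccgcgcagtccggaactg
Aurka, chr2:172370521-172370670, minus strand: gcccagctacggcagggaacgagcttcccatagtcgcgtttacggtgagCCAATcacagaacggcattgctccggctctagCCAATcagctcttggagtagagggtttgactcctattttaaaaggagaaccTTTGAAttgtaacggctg
Ube2c, chr2:164769829-164769978, plus strand: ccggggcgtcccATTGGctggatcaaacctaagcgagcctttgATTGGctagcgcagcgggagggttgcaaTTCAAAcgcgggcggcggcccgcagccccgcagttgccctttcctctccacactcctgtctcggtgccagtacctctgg
Bub1b, chr2:118598111-118598260, plus strand: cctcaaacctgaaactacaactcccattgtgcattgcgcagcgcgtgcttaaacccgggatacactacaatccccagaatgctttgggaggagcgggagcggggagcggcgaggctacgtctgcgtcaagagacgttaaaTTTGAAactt
Smc2, chr4:52439121-52439270, plus strand: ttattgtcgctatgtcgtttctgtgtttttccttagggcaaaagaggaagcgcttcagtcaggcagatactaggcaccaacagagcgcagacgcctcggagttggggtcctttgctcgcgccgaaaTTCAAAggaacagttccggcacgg
Ccnb1, chr13:100786437-100786586, minus strand: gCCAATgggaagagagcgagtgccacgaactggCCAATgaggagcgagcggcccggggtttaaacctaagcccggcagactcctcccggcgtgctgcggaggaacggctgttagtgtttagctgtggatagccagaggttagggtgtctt

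The comparison of F1 with F0 showed a shallow, broad shortfall of mitotic RNA in F1. In F1, 39 of the 46 members read below F0 and 7 above, where 50.8% of all genes compared read below and 49.1% above. The median member difference was -0.25 (log2), beside -0.01 over all genes and -0.01 over the 5418 genes of like mean level. Those 5418 had a mean within the range of the members' means (8.58 to 108 RPKM) and read above 0 in every library. They were not matched to single members. For 29 members the counting interval of the ratio lay wholly below 1 (19.6% of all genes of known length did so, and 23.1% of those of like level), and for 2, Smc4 and Prc1, wholly above 1 (18.1% of all genes). Few differences were large. At 1.5-fold or more on the log2(RPKM + 1) scale (a difference of at least 0.58), 3 members read lower in F1, beside 5.68% of all genes and 4.04% of those of like level, and none higher, beside 4.52% (10.2% in either direction). The count was 5 after the median of GC bins was subtracted. None differed 2-fold in any pair of libraries. Of all genes, 1.99% differed 2-fold between F1 and F0 (0.972% higher and 1.02% lower in F1), 3.15% between F10 and F0 (1.54% with F10 above, 1.61% with F10 below) and 3.98% between F10 and F1 (2.07% with F10 above, 1.92% with F10 below).

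The comparison of F10 with F0 was more mixed. Of the members, 32 read below F0 and 14 above, where 51% of all genes read below and 49% above, and the median difference was -0.15, beside -0.01 over all genes. Of the 5418 genes of like mean level 55.3% read below F0, with a median of -0.04. With the libraries scaled to a common RPKM sum the member median was -0.08, beside 0.06 over all genes. The counting interval lay below 1 for 21 members (20.3% of all genes, 25.7% of those of like level) and above 1 for 6 (18.5%), namely Smc2, Smc4, Top2a, Mki67, Cenpe and Bub3. At 1.5-fold, 1 member, Smc2, read higher in F10 (5.86% of all genes did) and none lower (6.46%, with 12.3% in either direction). With a pseudocount of 0.1 or 0.5 the count was 2, as Nusap1 passed the line as well. Between F10 and F1, 31 members read higher in F10, where 48.8% of all genes and 46% of those of like level did and 51.1% of all genes read lower, with a median of 0.11 beside -0.01. Intervals lay above 1 for 15 members (21.4% of all genes) and below 1 for 7 (22.1%). Smc2 alone was 1.5-fold higher in F10 than in F1 (8.27% of all genes) and no member was 1.5-fold lower (7.2%, with 15.5% in either direction). These pairs share libraries and are set side by side as values, not as separate evidence.

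**Figure D2:**
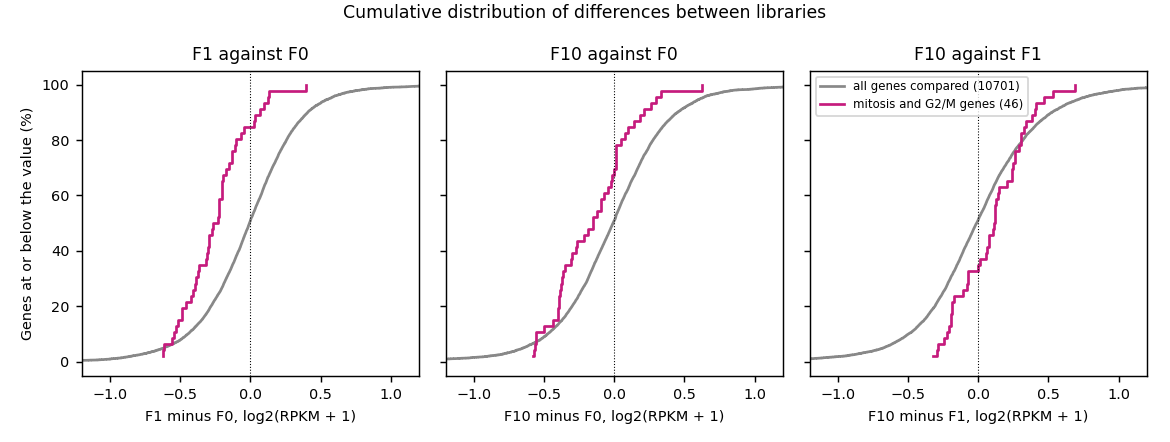
Cumulative share of genes (percent) by their difference between 2 libraries in log2(RPKM + 1), for the 46 mitosis and G2/M genes and the 10701 genes compared. The member curve lies to the left of the all-gene curve through most of its length for F1 against F0, with a median of -0.25 beside -0.01, and to the right at its middle for F10 against F1.

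The members nearest the 1.5-fold line on either side are given for each pair, and others lay close behind them. For F1 against F0, Kif20a, Ckap2 and Cdk1 were just inside at -0.62, -0.62 and -0.61, and Bub1b, Bub1 and Nuf2 just outside at -0.56, -0.54 and -0.53. For F10 against F0, Smc2 was inside at 0.63, and Nusap1, Tpx2 and Aurka outside at -0.58, -0.57 and -0.56. Ccnb1 and Ube2c followed closely, both at -0.56. For F10 against F1, Smc2 was inside at 0.69, and Bub1b, Aurkb and Ncapd2 outside at 0.53, 0.47 and 0.41.

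**Figure D3:**
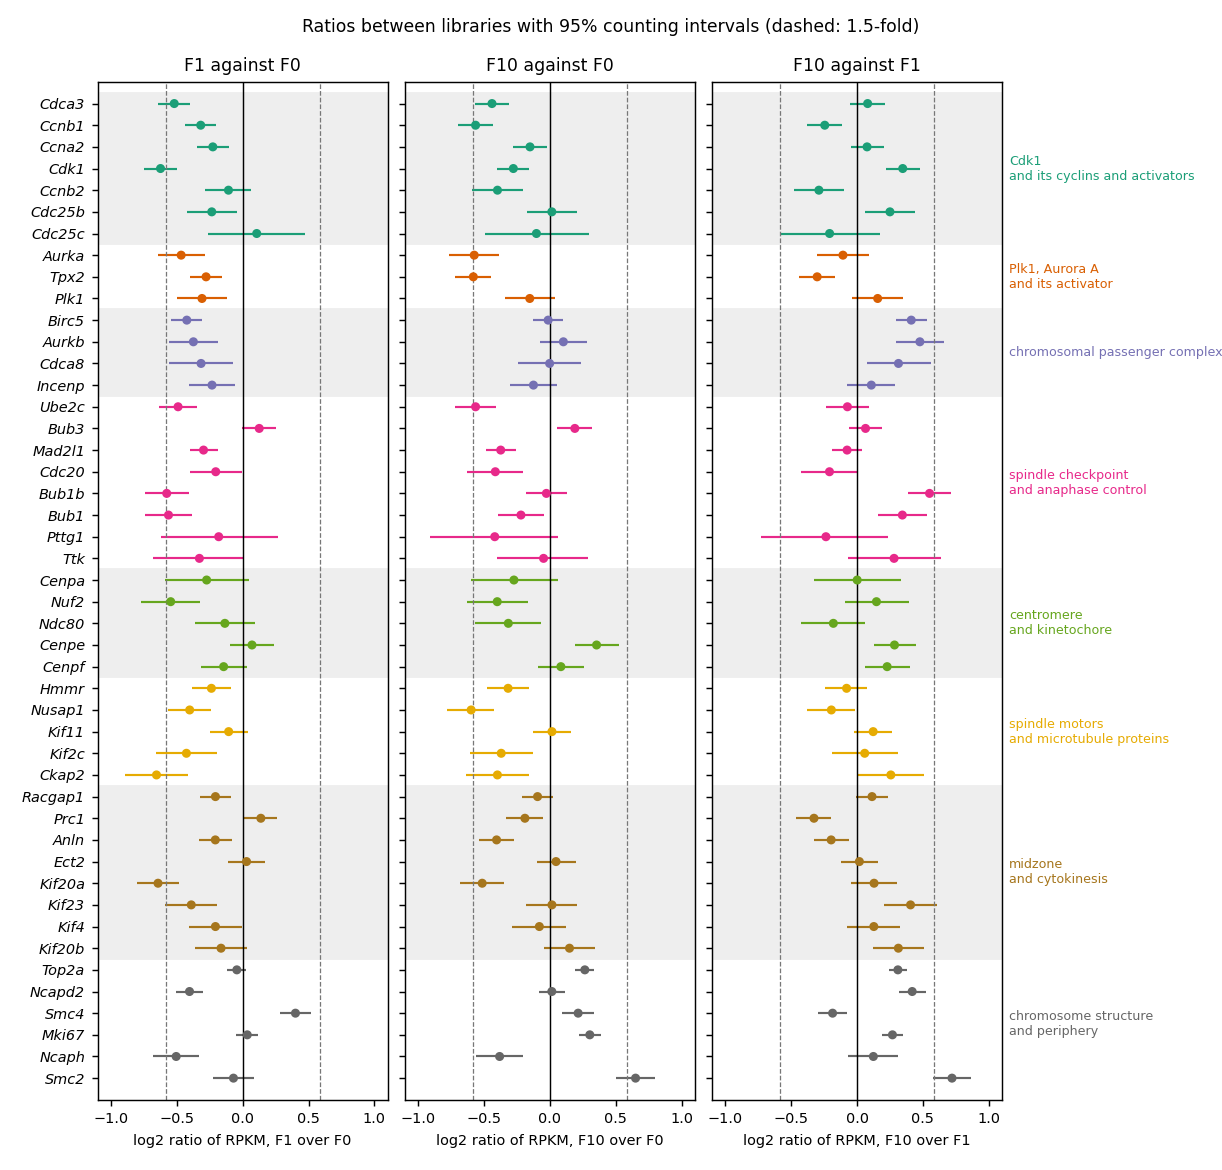
Ratio of RPKM between libraries on a log2 axis for each member, coloured by role, with 95% counting intervals as bars and dashed lines at 1.5-fold. In the F1 against F0 panel 29 bars lie wholly left of 0, in the F10 against F0 panel the chromosome structure genes lie mostly right of 0 and the Plk1 and Aurora A group left of it.

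Cdk1, its cyclins and its activators read lower in F1 in 6 of 7 members (median -0.23) and lower in F10 in 6 of 7 (median -0.27). Beside the counts of this and each role below, 50.8% of all genes compared read below F0 in F1 and 51% in F10. Cdk1 and Cdca3 alone overlap no gene on the other strand and have no such pseudogene, and their median in F1 was -0.56. Cdk1 itself, the kinase that drives entry into mitosis (chromosome 10, 69335146 to 69352938, GRCm38), read 81.6 RPKM in F0, against 53.0 in F1 and 67.3 in F10. F1 was the low library, with a ratio to F0 of 0.649 (95% counting interval 0.595 to 0.707), and F10 lay between, at 0.825 of F0 (0.758 to 0.897). The B-type cyclins had the opposite order of the 2 later sublines. Cyclin B1, Ccnb1, read 105 RPKM in F0, against 84.3 in F1 and 71.1 in F10, so that F10 was the lowest, at 0.676 of F0 (0.618 to 0.740) and 0.843 of F1 (0.770 to 0.925). Cyclin B2, Ccnb2, followed at 64.1, 59.5 and 48.7 RPKM, with a ratio of F10 to F1 of 0.818 (0.718 to 0.934). Between F10 and F1 the kinase and its B cyclins thus differed in opposite directions, since Cdk1 read 1.27 times its F1 level in F10 (1.16 to 1.39). Cyclin A2, Ccna2, which acts in S phase as well as in G2, differed less, at 81.3, 69.5 and 73.2 RPKM. Cdca3, an adaptor in the removal of the Cdk1 inhibitor Wee1, had the highest mean of this group and read 115 RPKM in F0, against 80.2 in F1 and 84.7 in F10, lower in both later sublines, with a ratio of F1 to F0 of 0.698 (0.641 to 0.759). The phosphatase Cdc25b read 27.9, 23.8 and 28.2 RPKM, and its relative Cdc25c 11.05, 11.9 and 10.3, with intervals that include 1 in every pair for Cdc25c. The annotation holds the pseudogenes Ccnb1-ps, Ccnb2-ps and, for a kinesin below, Kif4-ps, and reads could be split between each pair. Strand use in the counting is not given, and 11 members (Ccna2, Cdc25b, Cdc25c, Plk1, Cdca8, Ube2c, Cdc20, Nusap1, Kif20a, Kif4 and Prc1) overlap a gene on the other strand, so their values are uncertain to that extent.

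Plk1, Aurora A and its activator read below F0 in both other libraries, in 3 of 3 members each time. Aurora A, Aurka, a kinase of centrosomes and spindle poles, read 56.2 RPKM in F0, against 40.6 in F1 and 37.7 in F10. Tpx2, which activates Aurora A on spindle microtubules, read 53.7, 44.3 and 35.9 RPKM. In F10 the pair lay at nearly the same share of F0, with ratios of 0.671 (0.589 to 0.766) for Aurka and 0.668 (0.608 to 0.733) for Tpx2. Plk1, the polo kinase that acts from mitotic entry to cytokinesis, differed less, at 41.6, 33.6 and 37.4 RPKM, and its interval for F10 over F0 (0.789 to 1.03) includes 1. The group medians were -0.30 in F1 and -0.56 in F10.

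The chromosomal passenger complex, which corrects faulty attachments and later steers cytokinesis, read lower in F1 and close to F0 in F10. Survivin, Birc5, read 113 RPKM in F0, against 84.1 in F1 and 112 in F10. Aurora B, Aurkb, the catalytic subunit, read 49.2, 37.9 and 52.8 RPKM, and borealin, Cdca8, 38.4, 30.9 and 38.4. F0 and F10 were alike in these and F1 stood below them. The inner centromere protein Incenp showed a smaller dip, at 33.8, 28.8 and 30.99 RPKM. Against F0 the complex had a median of -0.34 in F1, with 4 of 4 members lower and 4 of 4 intervals below 1, and of -0.01 in F10, with no interval that leaves out 1. Of all genes, 50.8% read lower in F1, and 19.6% of those of known length had an interval below 1. In F10 20.3% had an interval below 1 and 18.5% above. The F10 median of the complex turned positive after rescaling the libraries and after subtraction of GC or length bins. Between F10 and F1 all 4 read higher in F10 (median 0.36), beside 48.8% of all genes, with ratios of 1.39 (1.22 to 1.58) for Aurkb and 1.33 (1.23 to 1.44) for Birc5. Aurora A and Aurora B therefore had different profiles. Aurka read below F0 in both later sublines, and its interval for F10 over F1 (0.809 to 1.06) includes 1. Aurkb read below F0 in F1 only, and its interval for F10 over F0 (0.948 to 1.22) includes 1.

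Genes of the spindle checkpoint and of anaphase control read below F0 in 7 of 8 members in F1 (median -0.29) and in 7 of 8 in F10 (median -0.29), and the members differed in which subline was lowest. The F10 median was -0.13 without the members that overlap a gene on the other strand, and with a common RPKM sum or GC bins subtracted 5 of 8 read lower. The checkpoint kinase Bub1 and its relative BubR1, encoded by Bub1b, read lowest in F1. Bub1b read 35.3 RPKM in F0, against 23.7 in F1 and 34.7 in F10, with ratios of 0.671 (0.599 to 0.752) for F1 over F0 and 1.46 (1.31 to 1.64) for F10 over F1. Bub1 read 32.3, 21.9 and 27.8 RPKM. Ttk, the Mps1 kinase that starts checkpoint signalling, had the same order at 9.64, 7.68 and 9.33 RPKM, on few enough fragments that each of its intervals includes 1. The remaining members that read below F0 had intervals between F10 and F1 that include 1. Ube2c, the ubiquitin-conjugating enzyme of the anaphase-promoting complex, read 104 RPKM in F0, against 73.7 in F1 and 70.0 in F10, a ratio of F10 to F0 of 0.676 (0.608 to 0.753). Cdc20, the activator of that complex, read 45.1, 39.1 and 33.8 RPKM, and securin, Pttg1, 23.4, 20.6 and 17.5, on 64 to 89 estimated fragments and with an interval that includes 1 in every pair. Mad2l1, whose product Mad2 sequesters Cdc20, read 58.6, 47.7 and 45.2 RPKM. Bub3, which carries Bub1 and BubR1 to kinetochores, was the exception in this group and read 73.6, 80.3 and 83.9 RPKM, lowest in F0.

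Centromere and kinetochore genes split by gene. Nuf2 and Ndc80, partners in the complex that grips microtubules, read 33.5, 22.9 and 25.4 RPKM and 27.3, 24.8 and 21.9 RPKM in F0, F1 and F10. Nuf2 had the widest spread of the group, with a ratio of F1 to F0 of 0.685 (0.585 to 0.800). Cenpa, the histone H3 variant of centromeres, had the highest mean and read 36.7, 30.3 and 30.3 RPKM, with intervals that include 1 in every pair and a ratio of F1 to F0 of 0.827 (0.666 to 1.03). Cenpe, a kinesin that moves chromosomes to the spindle equator, read 12.1, 12.7 and 15.4 RPKM, a ratio of F10 to F0 of 1.28 (1.14 to 1.44). Cenpf, a kinetochore and nuclear matrix protein, read 8.69, 7.86 and 9.20 RPKM, and its ratio of F10 to F0 was 1.06 (0.940 to 1.2).

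Spindle motors and microtubule proteins read lower in F1 in 5 of 5 members (median -0.39) and lower in F10 in 4 of 5 (median -0.35). Ckap2, a microtubule-binding protein of spindle poles (chromosome 8, 22168160 to 22185819, GRCm38), read 24.4 RPKM in F0, against 15.5 in F1 and 18.5 in F10. Its ratio of F1 to F0 was 0.635 (0.538 to 0.751), the lowest among the members. Nusap1, which bundles microtubules near chromosomes, stepped down through the sublines at 37.9, 28.6 and 25.02 RPKM, with a ratio of F10 to F0 of 0.661 (0.583 to 0.746), the lowest among the members for that pair. Hmmr, a spindle-pole protein also known as a hyaluronan receptor, had the highest mean here and read 35.4, 30.0 and 28.4 RPKM, with a ratio of F10 to F0 of 0.803 (0.719 to 0.895). Kif2c, a kinesin that takes microtubules apart, read 23.9, 17.8 and 18.5 RPKM. Kif11, the motor that pushes spindle poles apart, hardly differed, at 29.9, 27.8 and 30.2 RPKM, and its intervals include 1 in every pair.

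The midzone and cytokinesis genes read lower in F1 in 6 of 8 members (median -0.20). Their median for F10 against F0 was -0.08, was -0.01 with a common RPKM sum and turned positive, at 0.01, without the members that overlap other genes. Kif20a, the kinesin that brings passenger proteins to the midzone (chromosome 18, 34624613 to 34633277, GRCm38), read 43.7 RPKM in F0, against 28.0 in F1 and 30.6 in F10. It was low in both later sublines, with ratios to F0 of 0.641 (0.573 to 0.717) in F1 and 0.700 (0.624 to 0.784) in F10. Kif23 and Racgap1, which together form centralspindlin, read 24.2, 18.4 and 24.4 RPKM and 74.4, 64.5 and 69.7 RPKM. Racgap1 had the highest mean of the group and a ratio of F1 to F0 of 0.866 (0.799 to 0.939). Anillin, Anln, the scaffold of the contractile ring, stepped down at 43.6, 37.7 and 32.9 RPKM. Prc1, which crosslinks midzone microtubules, was highest in F1, at 56.4, 62.1 and 49.5 RPKM, and its ratio of F10 to F1 was 0.797 (0.727 to 0.872). Ect2, the exchange factor that activates RhoA at the cleavage furrow, was the steadiest member of all, at 33.9, 34.6 and 35.1 RPKM, a 1.03-fold range. The kinesins Kif4, which works with Prc1, and Kif20b read 15.5, 13.4 and 14.6 RPKM and 14.2, 12.7 and 15.7 RPKM.

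Genes of chromosome structure were the group that read higher in F10. Against F0, 5 of 6 members were higher in F10 (median 0.24), or 4 of 6 with length bins subtracted (median 0.17), beside 49% of all genes. Of the 6 intervals, 4 lay above 1 and 1 below (18.5% and 20.3% of all genes). In F1 2 of 6 were higher (median -0.06, or -0.02 with a common RPKM sum and -0.16 with GC bins subtracted). Smc2, an ATPase subunit of condensin (chromosome 4, 52439243 to 52488260, GRCm38), read 21.4 RPKM in F0, against 20.4 in F1 and 33.6 in F10. F10 stood alone, at 1.57 times F0 (1.42 to 1.74) and 1.65 times F1 (1.49 to 1.82). Its partner Smc4, which forms the condensin core with Smc2, did not follow it and was highest in F1, at 46.0, 60.7 and 53.4 RPKM, with a ratio of F1 to F0 of 1.32 (1.22 to 1.43). The regulatory subunits of condensin I differed again. Ncapd2 read 67.0, 50.7 and 67.7 RPKM, low in F1 only, and Ncaph 40.3, 28.4 and 30.9 RPKM, low in both later sublines. Within condensin, Smc2 and Ncapd2 read highest in F10, Smc4 in F1 and Ncaph in F0. Topoisomerase II alpha, Top2a, which untangles sister chromatids, read 103, 99.5 and 123 RPKM, with a ratio of F10 to F0 of 1.202 (1.14 to 1.26). Mki67, the source of the proliferation marker Ki-67 that coats mitotic chromosomes, read 37.9, 38.8 and 46.8 RPKM, with a ratio of F10 to F0 of 1.23 (1.16 to 1.31). As single markers of proliferation, Mki67 and Top2a were therefore highest in F10, while Ccnb1, Aurka, Ube2c, Tpx2 and Nusap1 were highest in F0.

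Transcript length moved with the differences between F10 and F0. Among the 46 members, Spearman's rho of the F10 minus F0 difference with transcript length was 0.51, and over the 10652 genes of known length it was 0.16. These are descriptions across genes of the same 2 libraries, and genes are not replicates. The 23 shorter members had a median of -0.30 and the 23 longer ones of 0.01, while all genes below and above the same length had medians of -0.06 and 0.05. After subtraction of the median of 20 length bins over all genes, a setting chosen after seeing the data, the member median was -0.13, and Mki67 lay at 0.18 in place of 0.30. For F1 against F0, rho was 0.31 among members and 0.13 over all genes. The part of length in these results was not tested. GC content of the transcript went with the F10 minus F0 difference at a rho of -0.19 among members and 0.21 over all genes. Members with and without TTTGAA in their promoter had medians of -0.20 (29 genes) and -0.35 (10 genes) in F1 against F0, and of -0.09 and -0.37 in F10 against F0.

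**Figure D4:**
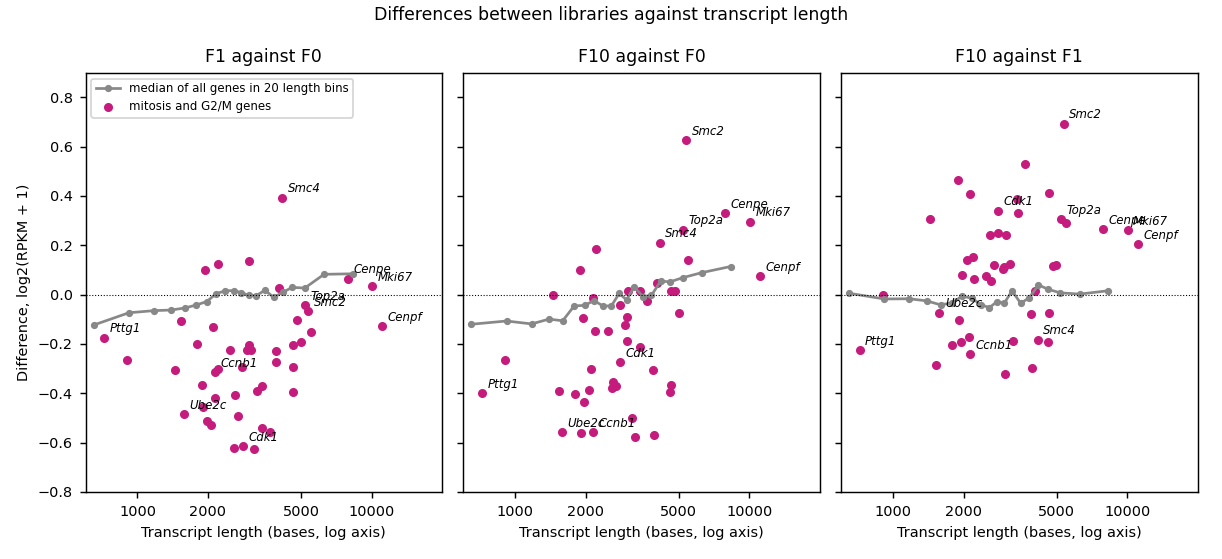
Difference between libraries in log2(RPKM + 1) against transcript length in bases (log axis), for the 46 members and as the median of all compared genes in 20 length bins. In the F10 against F0 panel the long transcripts Smc2, Cenpe, Mki67 and Top2a lie above 0 and short ones such as Ube2c and Pttg1 below. Some lie the other way, as the long Mad2l1 and Anln below 0 and the shorter Bub3 and Aurkb above.

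Further genes of the cell cycle, taken from lists set up by function, were read beside the members. Among 58 other mitotic genes, 45 read lower in F1 than in F0 (median -0.21), beside 50.8% of all genes. By at least 1.5-fold 5 did so, against the 5.68% of all genes given above. In F10 29 read higher than F0 and 29 lower, with a median of 0.01 that was negative with a filter at 5 RPKM or after length bins were subtracted. Psrc1, a spindle protein, read 25.4 RPKM in F0, against 13.6 in F1 and 33.6 in F10, and Gtse1, a microtubule-binding protein of G2, 26.9, 14.8 and 30.0. Both were lowest in F1, and their ratios of F10 to F1 were 2.46 (2.01 to 3.03) and 2.02 (1.72 to 2.37). Cks2, a Cdk1-binding protein, stepped down instead, at 107, 85.5 and 58.9 RPKM. Oip5, a centromere factor, read 10.4, 6.01 and 4.98 RPKM, and its interval for F10 over F1 (0.488 to 1.36) includes 1. Oip5 overlaps the member Nusap1 on the other strand, and the 2 may share reads. The kinase gene Pbk read 52.1, 31.3 and 32.5 RPKM and the kinetochore gene Ska3 11.2, 6.60 and 9.09.

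Of 23 transcription regulators, 15 read lower in F1 (median -0.17) and 17 lower in F10 (median -0.12), beside 50.8% and 51% of all genes. By 1.5-fold, 1 was higher and 1 lower in F1, beside 4.52% and 5.68% of all genes. In F10 none was, beside 5.86% higher and 6.46% lower. FoxM1, the activator of G2 genes, read 42.8 RPKM in F0, against 34.8 in F1 and 44.1 in F10, and B-Myb, encoded by Mybl2, 12.3, 8.84 and 11.5. Both were lowest in F1, with ratios to F0 of 0.813 (0.735 to 0.899) and 0.719 (0.593 to 0.869), and near F0 in F10. Lin54, the subunit of DREAM and of the B-Myb complex that contacts TTTGAA, read 6.03, 6.58 and 5.84 RPKM. Lin37, a DREAM subunit, read 4.96, 8.13 and 6.42 RPKM, and E2f2 3.94, 2.20 and 3.66. Of 20 listed brakes of G2 and inhibitors of Cdks, 18 are in the table and 14 were compared. Of these, 9 read lower in F1 and 11 lower in F10, beside the same 50.8% and 51% of all genes. The list's medians were -0.26 and -0.21. The p53 target Cdkn1a, which encodes the Cdk inhibitor p21, was lower in both later sublines, at 155, 83.3 and 78.4 RPKM. Ccng1, another p53 target, read 120, 58.4 and 94.6 RPKM. Gadd45a, which can hold cells in G2, was high in F1 alone, at 11.3, 45.1 and 10.3 RPKM. Cdkn1b, which encodes p27, was also highest in F1, at 23.8, 32.6 and 19.0. Fzr1, the activator that keeps the anaphase-promoting complex on in G1, read 19.5, 13.5 and 22.6 RPKM, and Ccng2 5.08, 3.92 and 2.72. Wee1, the kinase that restrains Cdk1, read 11.1, 11.3 and 9.37 RPKM. The 42 genes of DNA replication and G1/S read lower in F1 in 38 cases (median -0.34) and in 21 cases in F10 (median -0.02, positive after rescaling to a common RPKM sum or subtraction of GC bins), so that F1 read below F0 in most replication genes as it did in most mitotic ones.

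**Figure D5:**
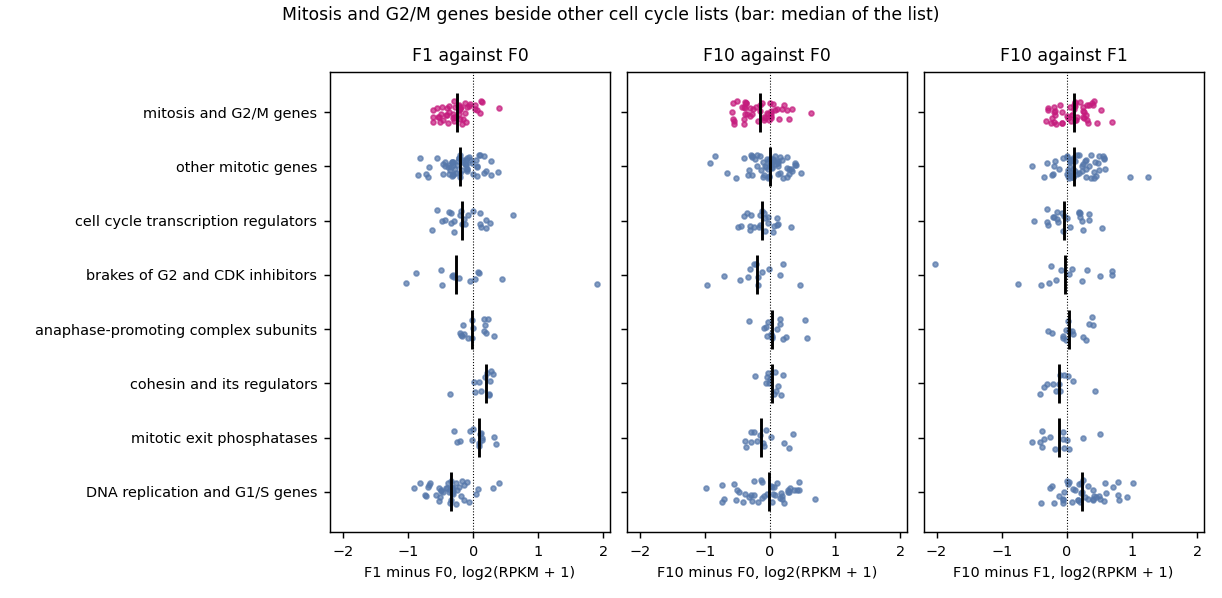
Differences between libraries in log2(RPKM + 1) for the members and for further cell cycle lists. Each point is a gene, with vertical scatter only for legibility, and the bar is the median of the list, which for F1 against F0 is -0.25 for the members, -0.21 for other mitotic genes and -0.34 for replication genes.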

How the data were processed

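RNA-seq of polyadenylated RNA, prepared by a strand-keeping kit (per the labels' protocols), was analysed for 1 library of each subline. The authors deposited 1 RPKM value per gene and library, per the file headers. Tools named in the submitters' processing notes are TopHat, Cufflinks, Bowtie2 and bcl2fastq, with the build mm10 (GRCm38). Their versions, the annotation and the use of strand are not given in these sources. A deposited score column equals the RPKM difference over the root of the RPKM sum and was not used. Rows with a date in place of a symbol (20 of 14313, 0.174% of RPKM) were left out.

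Differences of log2(RPKM + 1) were taken for genes at 1 RPKM or more in at least 1 library, and counted at 1.5-fold and 2-fold. Fragments were estimated from RPKM, transcript length less 40 bases, and the step that 1 fragment makes in low values of 1392 single-transcript genes. Length was the median over a gene's basic GENCODE M21 protein-coding transcripts, or over its other transcripts where it had none. A length was found for 99.1% of genes. Of values near the step, 80.0% in F0, 86.5% in F1 and 83.5% in F10 lay within 5% of it. Steps were tested on simulated data. Members, gene lists and thresholds were chosen with earlier results of these data known. All members are named. Ratios are given for those 1.5-fold apart and, in each role, for that of highest mean and that of widest spread. From other lists, up to 6 genes at least 1.5-fold apart are named, with Foxm1, Mybl2, Cdkn1a, Wee1 and Lin54. Ratios printed for other members were chosen after their values were seen. Protein motifs were not analysed here. Python 3.11.15, pandas 2.3.3 and scipy 1.17.1 were used.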

Additional observations from a re-analysis of the deposited data

How the results depend on the processing

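The alternatives tried were a pseudocount of 0.1 or 0.5, a filter at 5 RPKM or none, libraries rescaled to a common RPKM sum or by median ratios, and subtraction of the median of 20 GC bins. Subtraction of length bins, and leaving out the 13 members that overlap a gene on the other strand or have a pseudogene of the same symbol, were chosen after seeing the data. The member medians kept their direction under all of these, from -0.27 to -0.21 for F1 against F0, from -0.15 to -0.08 for F10 against F0 and from 0.11 to 0.17 for F10 against F1. The count of members at least 1.5-fold apart for F1 against F0 was 5 after subtraction of GC bins, and for F10 against F0 it was 2 with a pseudocount of 0.1 or 0.5, where Nusap1 joins Smc2. The number of members higher in F10 than in F0 ran from 12 to 18 over the settings that keep all 46. Of 1203 single-member values under these settings, 15 moved by more than the distance from the value to the bound of its counting interval, 13 of them with GC bins. The 1203 include values that could not move. The filter at 5 RPKM and the absence of a filter (138 values each) leave each member's difference as it was. So does leaving out members (99 values). No member at least 1.5-fold apart changed direction. No paired analysis was possible because each subline has 1 library. Depth limits Pttg1, Cdc25c, Ttk and Cenpa most, with 64 to 173 estimated fragments per library.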

Other observations

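Of 12 genes of cohesin, the ring that holds sister chromatids together, and its regulators, 11 read higher in F1 than in F0, beside 49.1% of all genes. Their median was 0.20, and none was 1.5-fold apart on the log2(RPKM + 1) scale, beside 10.2% of all genes. The exception was Esco2, an acetyltransferase that acts on cohesin in S phase, at 9.46, 7.19 and 10.01 RPKM in the order F0, F1, F10. After subtraction of GC bins 9 of the 12 read higher in F1, with a median of 0.13. In F10 7 of the 12 read higher than F0 (49% of all genes did), with a median of 0.03 that turned negative after subtraction of length bins. Core subunits such as Rad21 (86.5, 87.04 and 84.4 RPKM) and Smc3 (30.1, 30.7 and 31.3) hardly differed. These cohesin genes, and those that follow, were picked out after their values were seen.

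The 15 genes of the anaphase-promoting complex, 14 subunits and the ubiquitin-conjugating enzyme Ube2s, had medians of -0.02 in F1 and 0.03 in F10 against F0, the first of which turned positive after rescaling to a common sum or subtraction of GC or length bins. No gene of this list was 1.5-fold apart on that scale, on which Cdc26 came nearest, at 0.56 for F10 against F0. Of all genes, 10.2% were so for F1 against F0, 12.3% for F10 against F0 and 15.5% for F10 against F1. In a list of 15, a count of 0 is therefore not far from the share of all genes. Ube2s read 237, 233 and 231 RPKM in F0, F1 and F10, beside the 104, 73.7 and 70.0 RPKM of its partner enzyme Ube2c. The small subunits Cdc26 (19.3, 21.8 and 29.0 RPKM) and Anapc13 (27.9, 32.2 and 41.1) read highest in F10. Genes of the phosphatases that end mitosis, 14 in number, had medians of 0.09 in F1 and -0.13 in F10. Mastl, the Greatwall kinase that restrains one of them, read 8.18, 6.96 and 7.01 RPKM, and its substrates Ensa and Arpp19 read 40.4, 44.0 and 32.7 RPKM and 29.1, 24.4 and 23.5 RPKM.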
